A study of Mus musculus with 2 samples.

Results

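The genes described here are 8 that handle phosphate, pyrophosphate and phosphocholine at mineralising sites: Alpl, Phex, Enpp1, Ank, Slc20a1, Slc20a2, Phospho1 and Smpd3. They were taken by name from the 31053 gene rows of a droplet single-cell RNA sequencing matrix, in barcodes that had 500 or more genes detected and no more than 20% mitochondrial counts. Of 4775 such barcodes, 4501 were kept as single cells, and 2973 of these were mesenchymal (2204) or epithelial (769) cells of the tooth. All 8 genes had counts in these cells, and 7 had at least 30.

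The tissue was the lower incisor of untreated C57BL/6 mice of 4 weeks, a tooth that keeps growing and keeps making dentin and enamel. According to the labels the bone was taken off, the proximal end was cut away, and the pulp was isolated with its dental epithelium and digested with collagenase. The 2 sample titles differed only by lane, and 1 matrix with no list from barcodes to titles was analysed, so it was treated as 1 sample. The number of animals is not given in the sources used here, barcodes shared between the lanes could not be counted, and no difference has a replicate check. There was no treated or control group. The tissue was labelled dental mesenchyme, but epithelial markers defined 769 cells, and 589 further cells were macrophages or monocytes by their markers.

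Values are counts of unique molecular identifiers (UMIs, 1 per captured transcript) summed over a group of cells and scaled to the total of that group (CPM). They come with exact 95% Poisson intervals, and log2 ratios come with exact conditional binomial intervals. These intervals cover counting error only. Since only transcript ends were counted, levels are compared between groups for the same gene and not between genes. With a single sample there is no test, and "higher" or "lower" in a count of genes means a difference of at least 2-fold with at least 30 UMIs over both sides. The matrix held 68931830 UMIs, and the kept cells had a median of 5779. Barcodes with only 1 to 20 UMIs, which carry RNA that floats free in the cell suspension, held 2881242 UMIs. They gave the level of each gene in free RNA, and the amount of free RNA in each cell was not measured. The enamel gene Amelx was at 14928 CPM in free RNA and 808 CPM in macrophages and monocytes. A level below that of free RNA therefore does not show that a gene is absent.

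Mineral forms where phosphate is plentiful and pyrophosphate, which blocks crystal growth, is scarce. Tissue-nonspecific alkaline phosphatase (Alpl) sits on the cell surface and on matrix vesicles and splits pyrophosphate into phosphate. Enpp1 makes pyrophosphate from extracellular ATP, and Ank exports pyrophosphate or its precursors from the cell. Slc20a1 and Slc20a2 are sodium-dependent carriers that bring phosphate into cells. Smpd3 releases phosphocholine from sphingomyelin, and Phospho1 frees phosphate from phosphocholine inside vesicles. Phex is a membrane peptidase of odontoblasts and bone cells, and its loss causes X-linked hypophosphataemia with poorly mineralised dentin.

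Members and the wider gene lists were left out of the clustering, so the cell groups did not rest on them. The mesenchyme gave 9 clusters, each called by a leading gene. Marker lists named the Col24a1 cluster (192 cells) and the Dspp cluster (22 cells) odontoblast-like, the Igf1 cluster (382) follicle-like, the Lypd1 cluster (356) apical mesenchyme-like and the Tac1 cluster (198) pulp-like. The Fmod (352), Ube2c (348, led by cell-cycle genes), Lgals3 (228) and Cldn10 (126) clusters stayed unnamed. The epithelium gave 4 clusters: the ameloblast-like Ambn cluster (289), the Krt17 cluster (92, like stratum intermedium or outer epithelium), and the unnamed Grp (210) and Dspp (178) clusters. Because a Dspp cluster exists in both tissues, each is named with its tissue below.

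Several labels are weak. The 22 cells of the mesenchymal Dspp cluster had 6 raised odontoblast markers but also 4 of osteoblasts, whose summed list stood at 64100 CPM there against 5878 CPM in the Col24a1 cluster. The odontoblast list stood at 61236 CPM there against 8485 CPM in the Col24a1 cluster. Both lists hold Bglap and Bglap2, and Bglap alone was at 47752 CPM in these cells, so the sums do not tell the cell types apart. The Lgals3 cluster had raised Sct and Ifitm5, both odontoblast markers, and carried the enamel gene Amelx at 1629 CPM, below the 14928 CPM of free RNA. Its label changed with resolution. With finer clustering (resolutions 2.0 and 1.0) a Lgals3 cluster of 191 cells was named odontoblast-like. With coarser clustering (resolutions 0.5 and 0.3) no Lgals3 cluster formed. All 192 Col24a1 cells then lay in an odontoblast-like Sct cluster of 414 cells. In the Cldn10 cluster the mesenchymal marker list summed to 12777 CPM and the epithelial list to 91.3 CPM. The Krt17 cluster had 6367 CPM of the epithelial list and 442 CPM of the mesenchymal list, all 9 of whose markers had UMIs there. The same 9 markers had UMIs in the other epithelial clusters too, at 526 CPM (Grp), 156 CPM (Ambn) and 141 CPM (Dspp). The part of other cell types in these groups was not tested.

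The start regions of 4 members with higher levels in odontoblast-like than in other mesenchymal cells are shown, since these genes share a cell group and differ in the sequence before their starts. RefSeq tables (build GRCm38.p6) held promoters for 6 of the 8 genes. Slc20a2 and Smpd3 had no entry. Each line gives the 250 bases before a start on the strand of the gene, 5′ to 3′, and capitals mark matches on either strand to 1 of 4 short motifs: the RUNX core TGTGGT, the GC box core GGGCGG, the homeodomain core TAATTA and the TATA box TATAAA.
Alpl, first start: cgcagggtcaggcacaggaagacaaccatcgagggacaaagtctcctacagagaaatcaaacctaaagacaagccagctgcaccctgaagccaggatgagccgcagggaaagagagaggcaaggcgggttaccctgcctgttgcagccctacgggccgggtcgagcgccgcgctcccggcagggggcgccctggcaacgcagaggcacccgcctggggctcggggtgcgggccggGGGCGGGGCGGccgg
Alpl, second start: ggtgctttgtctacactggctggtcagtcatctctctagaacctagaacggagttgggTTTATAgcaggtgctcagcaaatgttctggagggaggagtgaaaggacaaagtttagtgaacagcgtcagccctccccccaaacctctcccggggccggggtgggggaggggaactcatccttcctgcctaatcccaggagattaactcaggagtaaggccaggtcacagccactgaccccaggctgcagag
Phex: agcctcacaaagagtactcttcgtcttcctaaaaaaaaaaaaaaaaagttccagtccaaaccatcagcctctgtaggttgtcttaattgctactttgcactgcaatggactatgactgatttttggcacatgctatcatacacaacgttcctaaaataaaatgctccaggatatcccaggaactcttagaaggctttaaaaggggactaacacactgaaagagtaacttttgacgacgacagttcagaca
Enpp1: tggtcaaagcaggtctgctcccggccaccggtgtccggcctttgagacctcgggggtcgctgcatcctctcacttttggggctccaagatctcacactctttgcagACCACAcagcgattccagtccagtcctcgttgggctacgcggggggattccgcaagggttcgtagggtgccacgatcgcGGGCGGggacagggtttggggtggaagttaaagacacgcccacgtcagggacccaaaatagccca
Ank: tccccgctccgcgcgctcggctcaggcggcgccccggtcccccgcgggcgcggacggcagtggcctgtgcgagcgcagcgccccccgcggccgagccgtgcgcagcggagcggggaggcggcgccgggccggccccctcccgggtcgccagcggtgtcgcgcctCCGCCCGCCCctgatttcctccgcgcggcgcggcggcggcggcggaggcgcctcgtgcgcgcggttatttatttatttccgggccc
The windows lie at chr4:137796385-137796634 and chr4:137766476-137766725 (Alpl, minus strand), chrX:157415287-157415536 (Phex, minus strand), chr10:24712160-24712409 (Enpp1, minus strand) and chr15:27466427-27466676 (Ank, plus strand). Base composition differed widely, from 39.2% G and C at Phex to 81.2% at Ank. The first start of Alpl had overlapping GC boxes at -15 and -10, counted to the start, and its second start had a TATA box in the reverse orientation at -192. Enpp1 held a RUNX core on the opposite strand at -144 and a GC box at -65, and Ank held overlapping GC boxes on the opposite strand at -86 and -82. No match to these motifs lay in the Phex window, which says only that these letters are absent there. Among 32851 promoter windows of equal length, 32.7% held a GC box, 14.0% a RUNX core, 12.4% a TATA box and 4.84% a homeodomain core. A match is a description of letters, and counts from transcript ends cannot tell the starts of Alpl apart.

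By the gene annotation of the same genome (GENCODE M21, GRCm38), the whole genes lie at chr4:137741733-137796384 (Alpl), chrX:157162075-157415312 (Phex), chr10:24637914-24712159 (Enpp1), chr15:27466677-27594909 (Ank), chr2:129198764-129211616 (Slc20a1), chr8:22476788-22569612 (Slc20a2), chr11:95824499-95832140 (Phospho1) and chr8:106252548-106337988 (Smpd3). Phex, Ank, Slc20a2, Phospho1 and Smpd3 overlap another annotated gene on the same strand, and how reads in such overlaps were assigned is not given in the sources used here.

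**Figure D1:**
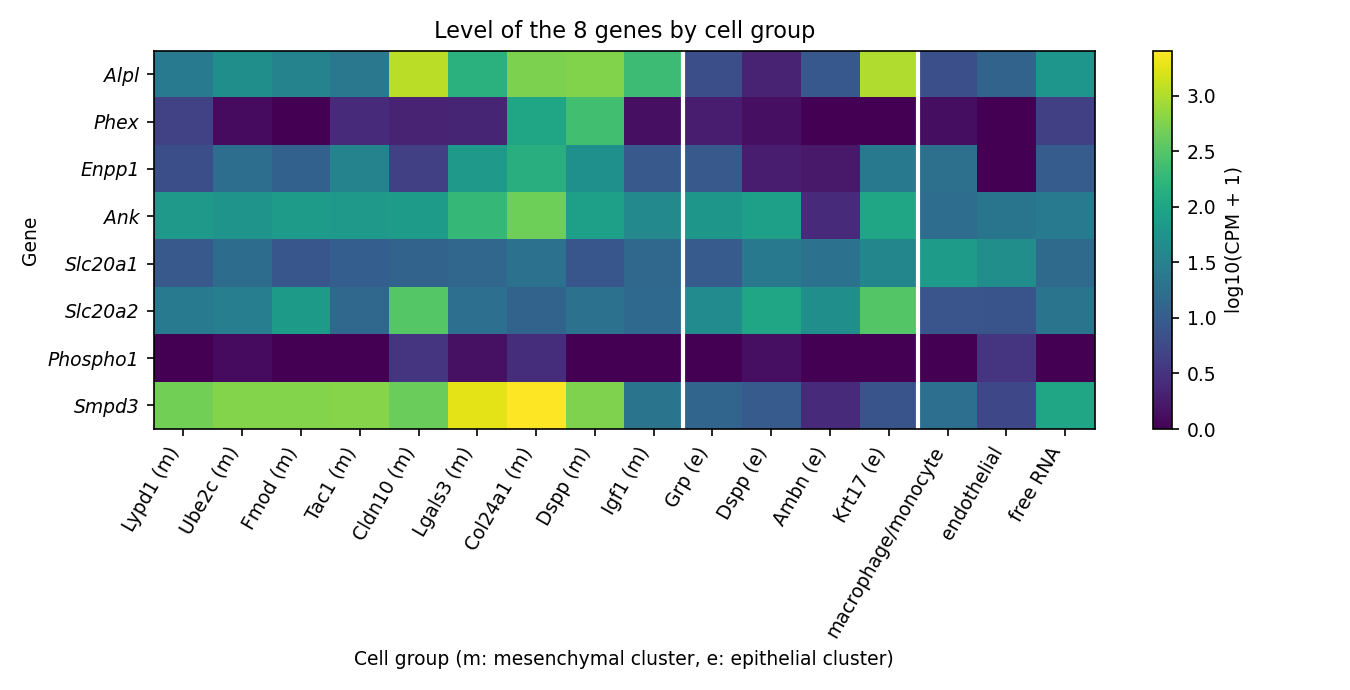
Level of the 8 genes (rows) in 9 mesenchymal and 4 epithelial clusters, in macrophages and monocytes, in endothelial cells and in free RNA (columns), as log10(CPM + 1). Colours compare columns within a row. Smpd3 is high in 8 of the 9 mesenchymal clusters and low in the Igf1 cluster and the epithelium, and Phex is confined to the Col24a1 and mesenchymal Dspp clusters apart from levels of at most 3.69 CPM.

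Alpl, the phosphatase, was highest in 1 unnamed mesenchymal cluster and 1 epithelial cluster. That order held at the main and finer resolutions and was lost with coarser clustering. The lead of the epithelial cluster was also lost with doublets kept. Its level was 1126 CPM (1057 to 1198) in the Cldn10 cluster of the mesenchyme and 1004 CPM (940 to 1071) in the Krt17 cluster of the epithelium. The mesenchymal Dspp cluster followed at 568 CPM (482 to 664) and the Col24a1 cluster at 542 CPM (512 to 574). The Cldn10 and Krt17 clusters differed by log2 0.17 (0.03 to 0.30), and the odontoblast-like clusters were not separated from each other (log2 0.07).

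With coarser clustering (resolutions 0.5 and 0.3), 125 of the 126 Cldn10 cells lay in a Tac1 cluster of 306 cells with 494 CPM of Alpl, and all 92 Krt17 cells in a Grp cluster of 302 cells with 273 CPM. The mesenchymal Dspp cluster, whose 22 cells stayed together, was then the highest at 568 CPM. With doublets kept, 91 Krt17 cells lay in a Grp cluster of 315 cells with 256 CPM. In the 59 Krt17 cells with at most 10% mitochondrial UMIs Alpl was at 764 CPM (700 to 832), against 1739 CPM (1572 to 1921) in the 33 Krt17 cells above 10%. The part of mitochondrial content in this level was not tested. The Cldn10 cells at or below 10% stood at 1146 CPM and those above at 1030 CPM, and finer clustering kept both clusters highest (1089 and 1002 CPM).

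The follicle-like Igf1 cluster had 213 CPM of Alpl and the Lgals3 cluster 149 CPM. All other mesenchymal clusters, from 22.0 CPM in the Tac1 cluster to 48.8 CPM in the Ube2c cluster, lay below the free RNA level of 61.1 CPM. So did the Ambn (7.59 CPM), Grp (5.58 CPM) and epithelial Dspp (1.20 CPM) clusters, as did macrophages and monocytes at 5.77 CPM. Those other mesenchymal clusters nonetheless lay above the macrophages and monocytes. In the epithelium Alpl was therefore close to a gene of 1 cluster: the Krt17 cells, 92 of 769, held 94.9% (93.4 to 96.2) of its 968 UMIs. In the mesenchyme no cluster held a majority, with 33.2% of 3650 UMIs in Col24a1 cells, 27.4% in Cldn10 cells and 16.0% in Igf1 cells.

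The share of cells with an Alpl UMI was measured after thinning every cell to 2000 UMIs, which takes depth out of the comparison. It left out 171 mesenchymal cells, 58 epithelial cells and 93 macrophages and monocytes below that depth. That share was 77.5% in the Cldn10 cluster, 72.7% in the mesenchymal Dspp cluster, 66.3% in the Col24a1 cluster and 49.4% in the Krt17 cluster. Macrophages and monocytes, which should lack the gene, had 1.01%. Without thinning the shares in the same order were 88.9%, 100%, 94.8% and 71.7%, against 2.38% in macrophages and monocytes. In the mesenchymal clusters below the free RNA level, thinned shares were 9.17% (Ube2c), 6.54% (Fmod), 3.07% (Lypd1) and 2.66% (Tac1). Krt17 cells thus matched Cldn10 cells more closely in summed level than in the share of cells with a UMI, and 16.2% of the Krt17 UMIs came from 1 cell, without which the Krt17 level was 880 CPM (819 to 944). In the Ambn cluster 50% of the 32 Alpl UMIs came from 1 cell.

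Slc20a2, the carrier also known as Pit2, was highest in the same pair of clusters. It stood at 316 CPM (280 to 355) in the Cldn10 cluster and 311 CPM (276 to 350) in the Krt17 cluster, values that were not separated (log2 -0.02, -0.26 to 0.22). Next came the epithelial Dspp cluster at 98.5 CPM and the Fmod cluster at 69.6 CPM. Unlike Alpl, Slc20a2 was low in odontoblast-like cells, with 11.2 CPM in the Col24a1 cluster and 18.1 CPM in the mesenchymal Dspp cluster against 19.4 CPM in free RNA. Cldn10 cells, 126 of 2204, held 39.6% of the mesenchymal Slc20a2 UMIs, and Krt17 cells held 33.6% of the epithelial ones. Among Krt17 cells Slc20a2 was at 246 CPM in those at or below 10% mitochondrial UMIs and 510 CPM in those above. With coarser clustering the clusters that took in the Cldn10 and Krt17 cells had 142 and 115 CPM.

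After thinning, 29.2% of Cldn10 cells and 25.9% of Krt17 cells had a Slc20a2 UMI, against 14.0% of Fmod cells, 11.8% of epithelial Dspp cells, 3.31% of Col24a1 cells and 1.41% of macrophages and monocytes. In the same order the shares before thinning were 54.8%, 55.4%, 33.0%, 53.4%, 10.9% and 3.23%. Both Alpl and Slc20a2 were seen in 31 of 120 thinned Cldn10 cells (25.8%), where 22.6% would carry both if the genes were unrelated. In the Krt17 cluster this was 13 of 81 cells (16.0% against 12.8%). So the pair shared clusters. Joint detection was slightly above that of unrelated genes, but could reach at most 29.2% in Cldn10 cells and 25.9% in Krt17 cells. With so narrow a range these counts cannot decide whether the genes go together within a cluster.

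**Figure D2:**
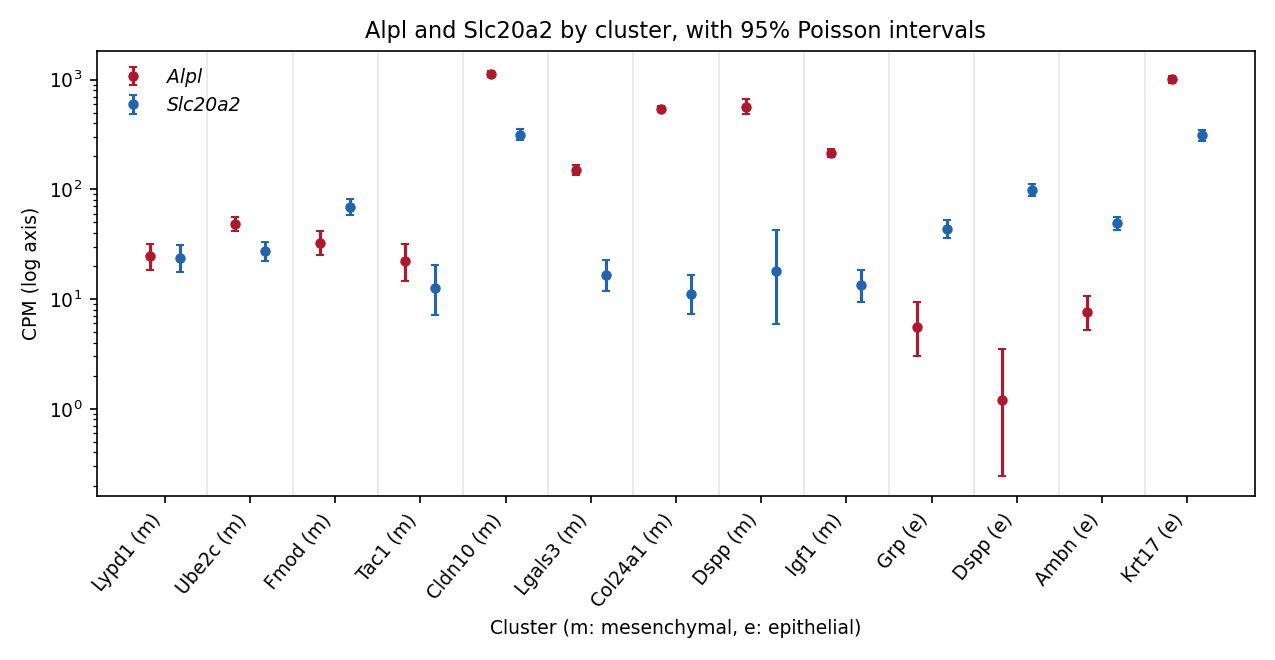
Alpl and Slc20a2 in the 13 clusters, as CPM on a log axis with exact 95% Poisson intervals. Both genes peak in the mesenchymal Cldn10 cluster (1126 and 316 CPM) and the epithelial Krt17 cluster (1004 and 311 CPM), and they part in the Col24a1 cluster, where Alpl is at 542 CPM and Slc20a2 at 11.2 CPM.

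The Krt17 and Cldn10 clusters were compared directly, since they stand in different tissues. Of 5 members with enough UMIs, 1 was higher and 1 lower in the Krt17 cluster, beside 16.9% and 8.89% of 6499 genes. Slc20a1 was higher (log2 1.68) and Smpd3 lower (log2 -6.03), while Alpl differed by log2 -0.17. The 2 clusters also shared Tnc, which codes for the matrix protein tenascin C, at 629 and 582 CPM, and Cldn10 itself, a claudin of tight junctions, was higher in the Krt17 cells (1050 CPM) than in the cluster it leads (144 CPM). Keratin and collagen genes kept them apart: Krt14 was at 956 and 4.51 CPM and Col1a1 at 42.6 and 6320 CPM.

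Set against the Col24a1 cluster, the Cldn10 cluster had 2 members higher and 4 lower of 7, beside 8.72% and 11.3% of 7653 genes. Alpl (log2 1.05) and Slc20a2 (log2 4.82, 4.23 to 5.47) were higher. Phex (log2 -6.45), Enpp1 (log2 -5.33), Ank (log2 -2.62) and Smpd3 (log2 -2.57) were lower. The Cldn10 cells therefore combined the highest Alpl level with low Enpp1, at 3.38 CPM (0.697 to 9.88, from 3 UMIs), and 1 Phex UMI. This Enpp1 level was not separated from those next to it in the order of clusters. With finer clustering (resolutions 2.0 and 1.0) the Cldn10 cluster had 11.0 CPM of Enpp1.

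Phex was nearly limited to the odontoblast-like clusters. The mesenchymal Dspp cluster had 235 CPM (181 to 300, from 65 UMIs) and the Col24a1 cluster 98.9 CPM (86.3 to 113, from 221 UMIs). Together they held 286 of 302 mesenchymal UMIs, or 94.7% (91.5 to 96.9), in 214 of 2204 cells. In the epithelium Phex had 3 UMIs, and the Ambn and Krt17 clusters had 0. Free RNA stood at 3.47 CPM, and macrophages and monocytes had 1 UMI (0.340 CPM).

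The share of cells with a Phex UMI after thinning was 13.8% (9.14 to 19.7) in the Col24a1 cluster and 22.7% in the mesenchymal Dspp cluster, with 35.9% and 40.9% before thinning. No thinned macrophage or monocyte had one, at a median of 4136 UMIs per cell before thinning against 9875 in the Col24a1 cluster. Outside the odontoblast-like clusters the largest Phex count was 8 UMIs in the Lypd1 cluster, all in 1 cell. That cell, of 11099 UMIs, also held 80 of the 81 UMIs of Fgf23 in that cluster, 772 of 777 UMIs of Spp1, and all 15 UMIs of Dmp1 and 12 of Mepe. Fgf23 is the phosphate-wasting hormone of bone, and Spp1, Dmp1 and Mepe code for phosphoproteins of the mineralised matrix. The same cell had 27 Ank UMIs, 0 of Alpl, Enpp1 and Slc20a1, 1 of Smpd3 and 3 of Col1a1, and was singled out after its values were seen. Without it the other 355 cells of the cluster had no Phex UMI.

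Enpp1, which makes pyrophosphate, was highest in the Col24a1 cluster at 136 CPM (121 to 152). The Lgals3 cluster followed at 66.1 CPM, the mesenchymal Dspp cluster at 50.6 CPM, the Tac1 cluster at 32.2 CPM and the Krt17 cluster at 22.9 CPM. The other 8 clusters lay between 0.712 CPM (Ambn) and 15.9 CPM (Ube2c), beside 17.3 CPM in macrophages and monocytes and 8.68 CPM in free RNA. Whether these low values come from the cells' own RNA or from background was not tested. After thinning 24.3% of Col24a1 cells and 13.2% of Lgals3 cells had an Enpp1 UMI, against 2.62% of macrophages and monocytes (62.5%, 41.2% and 7.30% before thinning).

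Ank, the pyrophosphate exporter, had the same leaders, at 443 CPM (416 to 472) in the Col24a1 cluster and 185 CPM (168 to 203) in the Lgals3 cluster. Below these 2 it was broad: 10 clusters lay between 39.3 CPM (Igf1) and 102 CPM (Krt17), above the 23.9 CPM of free RNA. The exception was the ameloblast-like Ambn cluster with 1.66 CPM, from 7 UMIs in 289 cells. After thinning 56.4% of Col24a1 cells, 30.7% of Lgals3 cells and 17.2% of epithelial Dspp cells had an Ank UMI, against 0.714% of Ambn cells and 2.22% of macrophages and monocytes (88.5%, 67.5%, 53.4%, 2.42% and 6.45% before thinning). The difference between the epithelial Dspp and Ambn clusters was log2 5.64 (4.57 to 6.97). In that comparison 2 of 4 measured members were higher in the Dspp cells, beside 18.3% of 8593 genes, and 1 was lower, beside 4.46%: Slc20a2 was higher by log2 1.00, which became 0.40 with totals that leave out the most abundant genes, and Alpl was lower.

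Smpd3, the sphingomyelinase that mouse mutants tie to bone and tooth mineralisation, was a gene of nearly the whole dental mesenchyme. Its level was 2536 CPM (2471 to 2603) in the Col24a1 cluster and 1822 CPM (1768 to 1877) in the Lgals3 cluster. Another 6 mesenchymal clusters lay between 428 CPM (Cldn10) and 606 CPM (Tac1). The follicle-like Igf1 cluster stood apart with 19.3 CPM, of which 43.4% came from 1 cell, below the 103 CPM of free RNA. No epithelial cluster exceeded 12.0 CPM. After thinning 97.8% of Col24a1 cells and 94.3% of Lgals3 cells had a Smpd3 UMI, against 1.12% of Igf1 cells and 1.41% of macrophages and monocytes (99.0%, 97.8%, 2.88% and 3.90% before thinning).

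Phospho1, which acts after Smpd3 in the same route, was at the limit of detection. The mesenchyme had 8 UMIs in 8 cells, of which 4 were Col24a1 cells, 2 Cldn10 cells, 1 a Lgals3 cell and 1 a Ube2c cell, and the epithelium had 1. That equals 0.445 CPM in the mesenchyme, and free RNA had 0. No comparison between groups is made for it at this depth.

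Slc20a1, also known as Pit1, was the member with the flattest profile over the 13 clusters of the tooth tissues. Levels ran from 7.10 CPM (3.97 to 11.7) in the Fmod cluster to 36.1 CPM (24.8 to 50.6) in the Krt17 cluster. No neighbours in that order were separated by counting error, but the intervals at its ends did not overlap. Free RNA stood at 13.9 CPM, inside the range. Finer clustering (resolutions 2.0 and 1.0) gave a wider range in the epithelium. An ameloblast-like Clu cluster of 65 cells had 67.3 CPM, against 6.19 CPM in the Ambn cluster and 2.68 CPM in a Cyp26a1 cluster. Levels were higher in immune cells than in the main clusters: 73.7 CPM in macrophages and monocytes, 96.5 CPM in T or NK cells, 68.8 CPM in dendritic cells and 68.7 CPM in neutrophils. Thinned shares with a UMI were 13.1% in macrophages and monocytes, 2.26% in the mesenchyme and 3.23% in the epithelium (24.6%, 8.39% and 13.7% before thinning). The 2 carriers were alike in part, with Pearson's r of log2(CPM + 5) at 0.44 over the 13 clusters. In the Krt17 cluster Slc20a1 ranked 1 and Slc20a2 ranked 2 of the 13. They parted in the Cldn10 cluster, where Slc20a2 ranked 1 and Slc20a1 ranked 8, at 11.3 CPM.

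Epithelium against mesenchyme was the first of 3 comparisons between groups, and the members were mostly mesenchymal. Of 7 measured, 5 were lower and 1 was higher in the epithelium, beside 20% lower and 10.5% higher among 12920 genes. The median over the members was log2 -1.44, against -0.29 over all genes. Smpd3 had 6.31 CPM in the epithelium and 888 CPM in the mesenchyme (log2 -7.14, -7.51 to -6.78). Phex (log2 -5.83, -8.11 to -4.27), Enpp1 (log2 -2.97, -3.43 to -2.53) and Ank (log2 -1.44, -1.59 to -1.30) were lower as well. Slc20a2 was the member that was higher, at 83.6 against 39.3 CPM (log2 1.09, 0.94 to 1.23), and Slc20a1 was within 2-fold (log2 0.61).

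Alpl was just past the threshold, with 95.4 against 203 CPM (log2 -1.09, -1.19 to -0.99). With totals that leave out the 5 genes above 1% of UMIs on either side, the median of all genes moved to log2 0.01, the background to 15% lower and 13.8% higher, and Alpl to log2 -0.79, within 2-fold. It depended on which clusters were included: without the Krt17 cells Slc20a2 was within 2-fold (log2 0.63), and without the odontoblast-like cells Alpl (log2 -0.63) and Ank (log2 -0.79) were. Without the latter cells Enpp1 and Smpd3 stayed lower, and Phex, at log2 -1.81, had 19 UMIs, fewer than the 30 needed to count it.

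In the mesenchyme, odontoblast-like cells (214) were compared with the other 1990. Of 7 measured members 5 were higher and 1 was lower, beside 7.58% and 21.6% of 12059 genes, and their median was log2 1.89 against -0.23 over all genes. Phex stood at 114 against 1.03 CPM (log2 6.78, 6.06 to 7.61). Without the cell with the most Phex UMIs on each side its ratio was log2 7.68. Genes on opposite sides of pyrophosphate balance were higher together: Enpp1 at 126 against 20.7 CPM (log2 2.61, 2.38 to 2.84), Ank at 404 against 78.9 CPM (log2 2.35, 2.23 to 2.48) and Alpl at 545 against 147 CPM (log2 1.89, 1.79 to 1.98). Smpd3 was at 2319 against 656 CPM (log2 1.82, 1.78 to 1.87).

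Slc20a2 was the member lower in odontoblast-like cells, at 11.9 against 43.8 CPM (log2 -1.87, -2.45 to -1.35), and Slc20a1 was within 2-fold (log2 0.58). The low Slc20a2 level was not particular to odontoblast-like cells. It was 12.6 CPM in the Tac1 cluster, 13.5 CPM in the Igf1 cluster and 16.7 CPM in the Lgals3 cluster. Of the 707 mesenchymal Slc20a2 UMIs, 280 were in Cldn10 cells and 147 in Fmod cells. All 6 differences stayed past 2-fold under each alternative run for this comparison, including those without the mesenchymal Dspp cluster and without the Lgals3 cluster. No alternative left out the Cldn10 or the Fmod cluster, so how far the Slc20a2 difference rests on them was not tested.

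**Figure D3:**
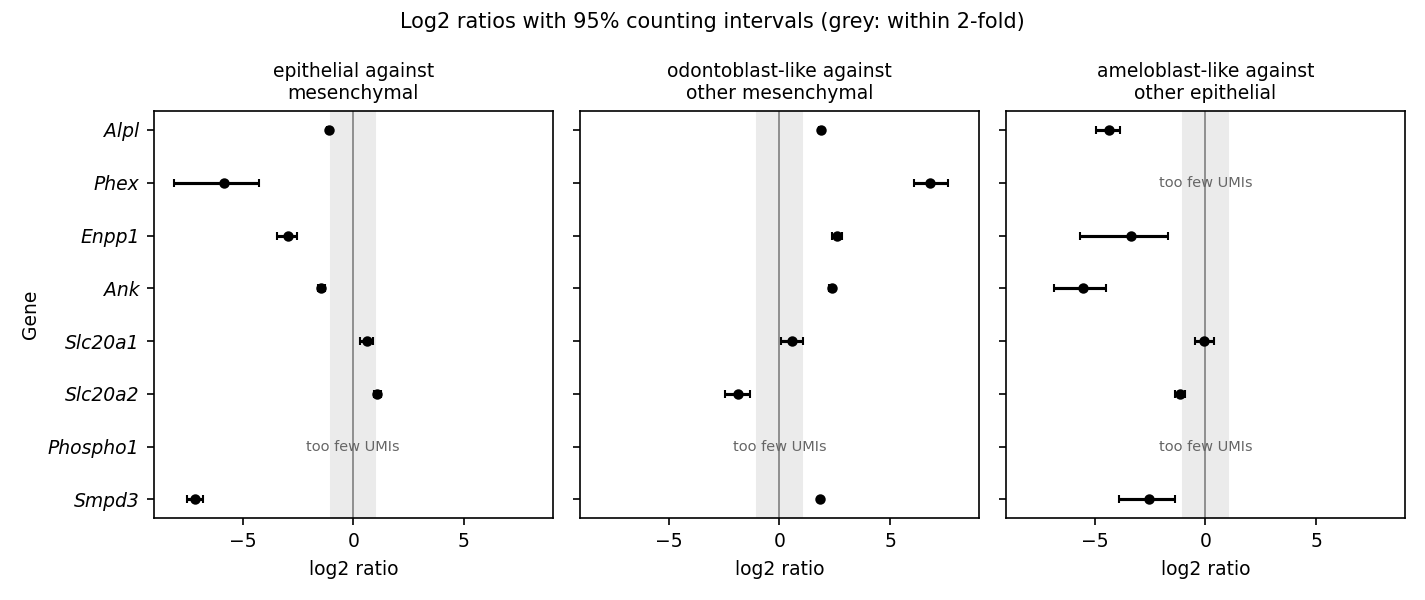
Log2 ratios of the members with exact 95% intervals in 3 comparisons: epithelium over mesenchyme, odontoblast-like over other mesenchyme, and ameloblast-like over other epithelium. Grey shading marks the range within 2-fold. Phex, Enpp1, Ank, Smpd3 and Alpl lie above it only in the odontoblast-like comparison. Slc20a2 lies below it in the odontoblast-like and ameloblast-like comparisons and above it in epithelium over mesenchyme.

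Among epithelial cells, the ameloblast-like cells (289) secrete the enamel matrix. Of 6 measured members 5 were lower than in the other 480 epithelial cells and 0 were higher, beside 40.5% lower and 3.54% higher among 10565 genes. Those other cells include the 178 cells of the epithelial Dspp cluster, where Amelx was at 89875 CPM, against 328691 CPM in the Ambn cluster. With finer clustering (resolutions 2.0 and 1.0) a Dspp cluster of 139 epithelial cells was named early ameloblast-like. The other side is therefore not an epithelium without enamel genes. The median of all genes was log2 -0.80 and became -0.09 with totals without the 8 genes above 1% of UMIs on either side, where 19.3% of genes were lower and 9.9% higher. Ank (1.66 against 77.1 CPM, log2 -5.54, -6.86 to -4.48) and Alpl (7.59 against 158 CPM, log2 -4.38, -4.93 to -3.87) were furthest below, and on those totals stood at log2 -4.82 and -3.66. Enpp1 (log2 -3.35, -5.68 to -1.71) and Smpd3 (log2 -2.53) were lower from few UMIs, 3 and 7 in ameloblast-like cells.

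Slc20a2 was at 49.1 against 108 CPM (log2 -1.14, -1.37 to -0.91), but at log2 -0.42 on totals without the most abundant genes. Slc20a1 was at log2 -0.05, and at log2 0.67 on those totals. With finer clustering (resolutions 2.0 and 1.0) ameloblast-like clusters ranged from 6.19 CPM (Ambn) to 67.3 CPM (Clu) of Slc20a1, so its ratio averages unlike cells. Of the 936 Alpl UMIs in the other epithelial cells 919 were in Krt17 cells, which leaves 17 UMIs against 32 in ameloblast-like cells. After removal of the Krt17 cluster the Alpl ratio was log2 1.16 (0.27 to 2.10), with both sides below the free RNA level. As 1 ameloblast-like cell held 16 of the 32 UMIs, and without it too the ratio was log2 0.18 (-0.90 to 1.25), no direction is read from these counts. With the Krt17 cluster removed Ank was at log2 -5.45, and Enpp1 at log2 -2.62 from 25 UMIs, fewer than the 30 needed.

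**Figure D4:**
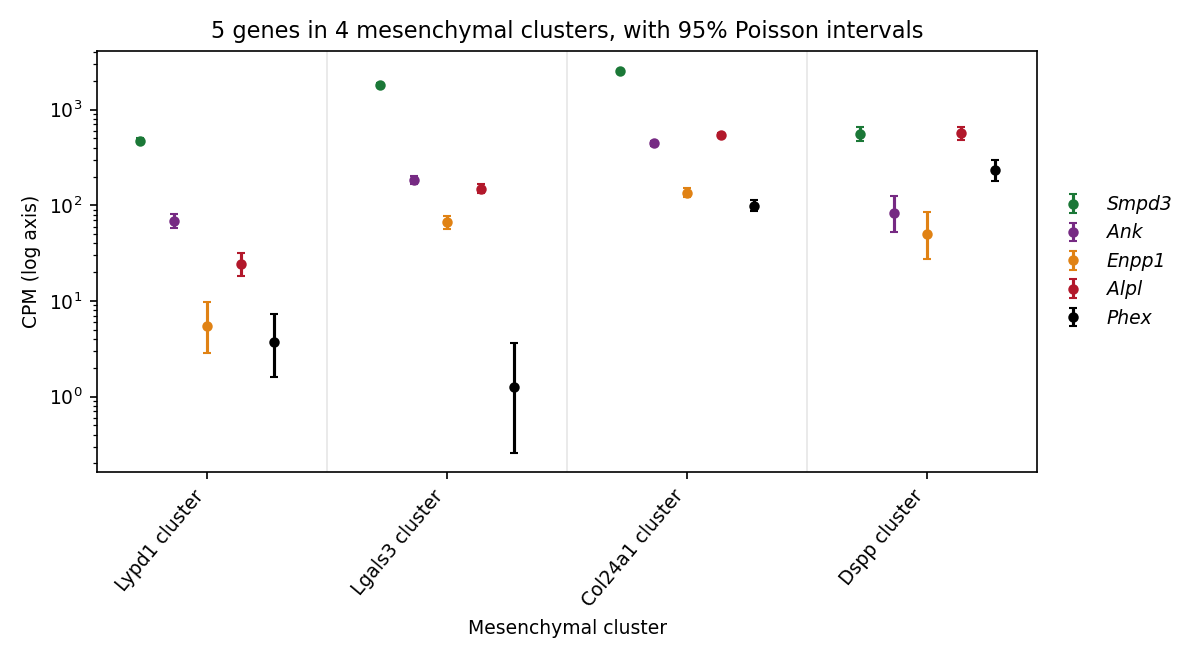
Smpd3, Ank, Enpp1, Alpl and Phex in the mesenchymal Lypd1, Lgals3, Col24a1 and Dspp clusters, as CPM on a log axis with exact 95% Poisson intervals. Smpd3, Ank and Enpp1 are highest in the Col24a1 cluster (2536, 443 and 136 CPM), whereas Phex is highest in the mesenchymal Dspp cluster (235 CPM).

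The Lgals3 cluster shared Sct and Ifitm5 with the Col24a1 cluster, and the members split between those already high in it and those not. Against the Lypd1 cluster, 4 of 6 measured members were higher in Lgals3 cells and 0 lower, beside 5.93% and 7.06% of 8919 genes: Enpp1 (log2 3.58), Alpl (log2 2.61), Smpd3 (log2 1.95) and Ank (log2 1.44). From the Lgals3 to the Col24a1 cluster, 4 of 7 were higher and 0 lower, beside 5.83% and 5.75% of 8629 genes. Phex differed most (log2 6.30, 4.73 to 8.59), then Alpl (log2 1.86), Ank (log2 1.26) and Enpp1 (log2 1.04), while Smpd3 differed by log2 0.48. Smpd3 was thus near its highest level in Lgals3 cells, which had 3 Phex UMIs among 228 cells. These clusters are groups of cells, and no order in time was measured.

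Within the odontoblast-like cells, the mesenchymal Dspp cluster differed from the Col24a1 cluster in 5 of 7 measured members, 1 higher and 4 lower, beside 6.15% and 17% of 6764 genes. Phex was higher (log2 1.25, 0.83 to 1.65), and Ank (log2 -2.41), Smpd3 (log2 -2.18) and Enpp1 (log2 -1.42) were lower. Slc20a1 was lower from 2 UMIs, with an interval that crosses 0 (log2 -1.34, -4.44 to 0.60), and Alpl was level. The Phex difference leaned on 1 cell with 23 of the 65 UMIs, which also held 282 Dspp UMIs and all 11 Sct UMIs of the cluster. Without that cell Phex stood at 168 CPM and log2 0.77 (0.26 to 1.25), within 2-fold.

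The 22 cells differed in some genes when they were divided by Dspp, a division chosen after the values were seen. Whether they are of distinct kinds was not tested. The 10 cells with at least 10 Dspp UMIs held 64 of the 65 Phex UMIs (488 CPM, 376 to 623). The other 12 cells held 1 (6.87 CPM). Alpl hardly differed between them, at 595 and 543 CPM. Smpd3 was at 275 CPM in the first and 818 CPM in the second group, and the bone sialoprotein gene Ibsp at 3287 and 5512 CPM, with an Ibsp UMI in 21 of the 22 cells. In 8 cells there was at most 1 Dspp UMI.

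Dspp, which codes for the main non-collagen proteins of dentin, also divided the Col24a1 cluster, again by a choice made after the values were seen. A Dspp UMI was present in 54 of its 192 cells (median 11014 UMIs, 867255 in all) and absent in 138 (median 9395 UMIs, 1367996 in all). The cells with Dspp were thus deeper, more so by totals than by medians. The split was not repeated on thinned cells, so the part of depth was not tested. Phex stood at 190 CPM (162 to 222) in the cells with Dspp and 40.9 CPM (30.9 to 53.2) in those without (log2 2.22, 1.77 to 2.68). Dmp1 behaved alike, at 686 and 78.9 CPM. Alpl (log2 0.64), Enpp1 (log2 0.67) and Ank (log2 0.60) were modestly higher with Dspp, and Smpd3 was slightly lower (log2 -0.22). Slc20a2 had 2 UMIs with Dspp and 23 without (log2 -2.87, -6.00 to -0.85).

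**Figure D5:**
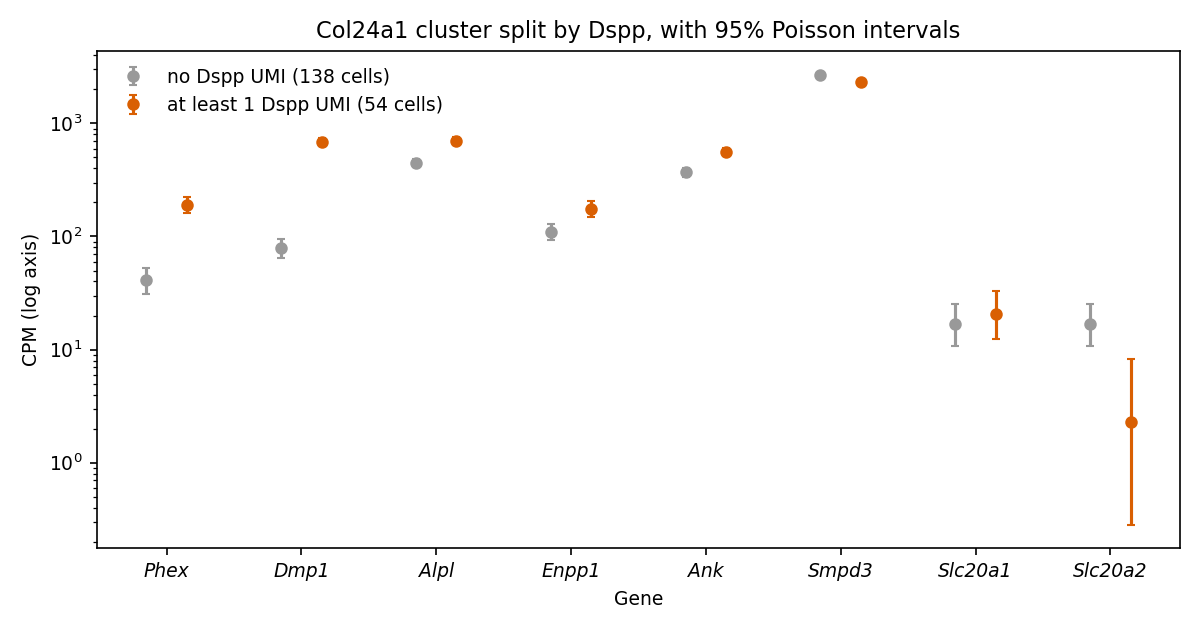
Dmp1 and the members other than Phospho1 in Col24a1 cluster cells with at least 1 Dspp UMI (54 cells) and with none (138 cells), as CPM on a log axis with exact 95% Poisson intervals. Phex is at 190 CPM with Dspp and 40.9 CPM without, whereas Smpd3 is at 2302 and 2685 CPM.

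Genes with the most similar profile were ranked by Pearson's r of log2(CPM + 5) over the 13 clusters, which share 1 library and its depth, so r is a description. Closest to Phex were Chst13 (r = 0.97), a chondroitin sulfotransferase gene that also leads the Col24a1 cluster, Dmp1 (0.96) and Gal (0.94), the galanin gene. Smpd3 went with Fam149a (0.97), Chn1 (0.96) and Foxo3 (0.96), and Alpl with Sike1 (0.92), BC003331 (0.91) and Myo10 (0.88). Profiles nearest to Enpp1 were those of Crebzf, Rcor2 and Crat (each 0.89), and nearest to Ank those of Irf2, Psmd4 and Numb (each 0.90). The carriers had looser neighbours, Cited4 (0.87), Kansl3 (0.86) and Cpm (0.84) for Slc20a2 and Lrrfip2 (0.86), Atp11a (0.85) and Ogdh (0.84) for Slc20a1. Among the members, Enpp1 and Ank were the most alike (r = 0.73) and Slc20a2 and Enpp1 the least (r = -0.49). Alpl and Slc20a2, which share their 2 highest clusters, had r = 0.18.

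A wider set of 69 genes in 6 lists put the members into context. Between epithelium and mesenchyme 55 were measured, of which 14 were higher and 14 lower in the epithelium (median log2 -0.07), beside 10.5% higher and 20% lower among all genes. Between odontoblast-like and other mesenchymal cells 50 were measured, with 9 higher and 7 lower (median log2 0.23), beside 7.58% and 21.6% of all genes. Between ameloblast-like and other epithelial cells 46 were measured, with 2 higher and 16 lower (median log2 -0.75), beside 3.54% and 40.5% of all genes. The medians over all genes in these comparisons were log2 -0.29, -0.23 and -0.80, so each median of the listed genes lay slightly above that of all genes.

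Of 7 other phosphate transport genes, 3 were measured between the tissues, 2 higher and 0 lower in the epithelium, beside 10.5% and 20% of all genes. Slc34a2, a sodium-phosphate cotransporter, had 32 UMIs there and 0 in the mesenchyme (at least log2 4.24), with 30 of them in Krt17 cells and 12 in 1 cell. Xpr1, the phosphate exporter, was at 45.9 against 13.1 CPM (log2 1.81) and peaked in the Krt17 cluster at 144 CPM. The Krt17 cells thus had the highest Xpr1 and Slc34a2 levels as well as high Slc20a2. In the ameloblast-like comparison 1 of 3 was lower, beside 40.5% of all genes, Slc34a2 (at most log2 -2.92). In the odontoblast-like one 0 of 2 differed by 2-fold, beside 7.58% higher and 21.6% lower among all genes, with Xpr1 at log2 -0.10 and Slc25a3, the mitochondrial phosphate carrier, at log2 0.16.

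Of 15 genes of pyrophosphate and extracellular nucleotides, 12 were measured between the tissues, 3 higher and 2 lower in the epithelium, beside 10.5% and 20% of all genes. Entpd3, which degrades extracellular ATP, was higher (log2 4.03), while Panx3, an ATP-release channel of mineralising cells, was lower (log2 -4.56), as was Lhpp (log2 -2.62). Panx3 was at 174 CPM in the Col24a1 cluster, 185 CPM in the Lgals3 cluster and 172 CPM in the Cldn10 cluster. In odontoblast-like cells 2 of 11 were higher and 3 lower, beside 7.58% and 21.6% of all genes. The lower ones were Enpp2 (log2 -4.83), Entpd3 (log2 -3.64) and Enpp5 (log2 -1.89). Enpp2, which makes lysophosphatidic acid and not pyrophosphate, was at 924 CPM in the Krt17 cluster. Among ameloblast-like cells 1 of 10 measured genes was higher and 4 were lower, beside 3.54% and 40.5% of all genes, with Enpp2 furthest (log2 -7.25), then Panx3 (log2 -3.41) and Nt5e (at most log2 -3.17).

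Of 17 genes of the FGF23 axis and possible Phex substrates, 13 were measured between the tissues, 4 higher and 5 lower in the epithelium, beside 10.5% and 20% of all genes. Spp1 (log2 -7.85), Dmp1 (log2 -6.73) and the protease gene Pcsk5 (log2 -5.83) were furthest below. The cell with Fgf23 described above held 772 of the 1229 mesenchymal Spp1 UMIs and 80 of the 81 of Fgf23, which was also among those lower. In odontoblast-like cells 4 of 11 were higher and 3 lower, beside 7.58% and 21.6% of all genes. Dmp1 (293 against 1.16 CPM, log2 7.98, with 15 of the 18 UMIs in other cells from the Fgf23 cell) and Fam20c (83.2 against 6.85 CPM, log2 3.60), the kinase of secreted phosphoproteins, were among those higher. Fgf23 was at most log2 -2.13, but this rests on that 1 cell. Fam20c was also high in the epithelium, at 176 CPM in the Ambn cluster. Among ameloblast-like cells 1 of 8 was higher and 4 lower, beside 3.54% and 40.5% of all genes. The peptidase gene Mme was at 6.17 CPM against 364 CPM in the epithelial Dspp cluster (log2 -5.07 against all other epithelium), Stc1 was at most log2 -2.83 and Ece1 at log2 -1.71.

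Of 17 phosphocholine and sphingomyelin genes all were measured between the tissues, with 3 higher and 5 lower in the epithelium, beside 10.5% and 20% of all genes. The pair of sphingomyelin synthase genes went opposite ways: Sgms1 was higher (log2 2.03) and Sgms2 lower (log2 -6.66), and Enpp6, a choline phosphodiesterase gene, was lower (log2 -1.91). Sgms2 followed Smpd3, with 1190 CPM in the Col24a1 cluster, 727 CPM in the Lgals3 cluster and 8.37 CPM in the Igf1 cluster. In odontoblast-like cells 2 of 16 were higher and 1 lower, beside 7.58% and 21.6% of all genes: Sgms2 (1096 against 227 CPM, log2 2.27), Smpd1 (log2 1.52) and Chka (log2 -1.01). Among ameloblast-like cells 0 of 15 were higher and 5 lower, beside 3.54% and 40.5% of all genes, led by Enpp6 (log2 -2.77), Smpd2 (log2 -2.20) and Sgms2 (log2 -1.78).

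The 6 annexin genes of matrix vesicles were all measured, with 1 higher and 2 lower in the epithelium, beside 10.5% and 20% of all genes: Anxa4 (log2 1.14), Anxa1 (log2 -2.52) and Anxa5 (log2 -1.12). None of the 6 differed by 2-fold in odontoblast-like cells, beside 7.58% higher and 21.6% lower among all genes, and Anxa1 was at log2 -0.74, Anxa6 at log2 0.59 and Anxa5 at log2 0.58. In ameloblast-like cells 1 was lower, beside 40.5% of all genes, Anxa1 (log2 -2.25). Of 7 other phosphatase genes 4 were measured in each comparison, with 1 higher and 0 lower in the first 2 and 0 higher and 1 lower (Acp1, log2 -1.79) in ameloblast-like cells, beside the same shares. Acpp, a prostatic-type acid phosphatase gene, was the higher one. It was higher in the epithelium (158 against 3.17 CPM, log2 5.64), where the Dspp cluster had 288 CPM and the Ambn cluster 196 CPM, and higher in odontoblast-like than in other mesenchymal cells (15.9 against 1.10 CPM, log2 3.86). Krt17 cells, with nearly all epithelial Alpl, had 30.6 CPM of Acpp.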

How the data were processed

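The authors deposited 1 unfiltered matrix of raw UMI counts per gene and barcode, whole numbers up to 22771. Per the file headers the counts are in format version 2 from software version 3.0.2, a program the headers do not name. The submitters' processing notes name genome build mm10, R 3.4.1 and Seurat, without their roles. The aligner is not given in the sources used here. Per the labels' protocols libraries were made with a 10x Genomics 3′ kit.

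Barcodes were filtered as stated (5336 with at least 500 genes, 561 of them above 20% mitochondrial). Scrublet in scanpy 1.11.5 (Python 3.11.15) called 1 doublet at its own threshold, so a score above 0.15 was used and removed 122 barcodes. A further 152 barcodes outside erythroid clusters had over 5% haemoglobin UMIs and were removed. Log-scaled values of 2000 variable genes gave 30 principal components, 15 neighbours and Leiden clusters (leidenalg 0.10.2, resolution 1, mesenchyme again at 0.5, seed 0). A cluster was named from at least 3 markers that were raised 2-fold and present in 25% of its cells. No sample column was left unused (0). A count of 0 was replaced by a floor of 3 counts over the group, which gives a bound. Intervals are at 95%, those of shares by Clopper-Pearson, and the interval code was tested on simulated data. Thinning drew 2000 UMIs per cell without replacement.

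The members and lists were chosen with earlier results of these data known. By rule all 8 members are named, and per list and comparison up to 3 genes with the greatest absolute log2 ratio and at least 30 UMIs over both sides. Also named are the 3 genes of most similar profile per member among those with at least 300 UMIs in the clusters. Other genes named were chosen after their values were seen. The level of 1 epithelial cluster formed under a stricter mitochondrial limit is not reported here. Alternatives changed the totals, the weight of cells, the minimum count, the filters, the clustering and the clusters compared.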

Additional observations from a re-analysis of the deposited data

How the results depend on the processing

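No paired analysis was possible because 1 matrix holds all cells and its sample titles have no replicate numbers that could be tied to barcodes. Leaving out replicates was not possible for the same reason. In the comparison of odontoblast-like with other mesenchymal cells, all 6 differences past 2-fold were kept under each alternative run. Between epithelium and mesenchyme the main counts were 1 member higher and 5 lower. With equal weight per cell 0 were higher and 4 lower, since Slc20a2 and Alpl came within 2-fold, and Alpl did so too with totals that leave out genes above 1% of UMIs. Added after seeing the data, removal of the Ambn cluster left 3 lower (without Alpl and Ank), removal of the Krt17 cluster left 0 higher, and removal of the odontoblast-like clusters left 0 higher and 2 lower, where Phex kept log2 -1.81 but had only 19 UMIs. In the ameloblast-like comparison (0 higher, 5 lower), removal of the Krt17 cluster gave 1 higher and 2 lower. Alpl was reversed there to log2 1.16, or 0.18 without 1 ameloblast-like cell with 16 of 32 UMIs, and Enpp1 kept log2 -2.62 but had only 25 UMIs. There Slc20a2 came within 2-fold with reduced totals, with equal weight per cell and with at most 10% mitochondrial UMIs, and Smpd3 did so with doublets kept. For the wider lists, reduced totals gave 6 genes higher and 12 lower in ameloblast-like cells in place of 2 and 16, while all genes moved from 3.54% to 9.9% higher and from 40.5% to 19.3% lower. The lead of the Cldn10 and Krt17 clusters in Alpl was lost at resolutions 0.5 and 0.3, where larger clusters took in their cells, and that of Krt17 cells also with doublets kept. Without 1 cell of the mesenchymal Dspp cluster, the Phex ratio to the Col24a1 cluster moved from log2 1.25 to 0.77. Leaving out, for each gene, the cell with the most of its UMIs on each side kept every call of a member in the 3 comparisons. Of the listed genes Fgf23 lost its calls that way and Enpp2 came within 2-fold between epithelium and mesenchyme (log2 0.81). Slc34a2, Panx3 and Stc1 then had fewer than 30 UMIs. With 1 sample, differences between animals were not measured, and at this depth Phospho1 could not be compared.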
